A study of Mus musculus with 6 samples.

Results

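The NR4A, EGR and IER families of early-response genes, together with Cd69, were examined in mRNA-seq of natural killer (NK) cells purified from the spleen. The genes were chosen by symbol, as Nr4a1, Nr4a2, Nr4a3, Egr1, Egr2, Egr3, Ier2, Ier3, Ier5 and Cd69, and all 10 were among the 14490 genes of the deposited table. WT samples came from Mettl3fl/fl mice without Cre, and cKO samples came from Ncr1Cre-Mettl3fl/fl mice, so that both genotypes carried the floxed Mettl3 alleles and only cKO carried Cre. All mice were of the C57BL/6 strain and aged 6 to 10 weeks, and 3 samples were sequenced per genotype. No treatment beyond purification was described for these cells. The study's methods describe NK-cell purification with an antibody to the receptor NKp46 and magnetic beads, and flow sorting of the cells for mRNA-seq. The levels below are those after these steps, whose part was not tested. Cre was expressed from the Ncr1 locus, which encodes the NK receptor NKp46, and an effect of Cre itself cannot be told apart from that of the deletion. The labels do not say whether the samples of a genotype came from separate mice, so the p-values measure the spread between these samples.

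Immediate-early genes are transcribed within minutes of a signal by factors that already sit in the resting cell, and their transcripts are short-lived, often through AU-rich elements in the 3′ untranslated region (UTR). In lymphocytes they report signals from activating receptors, cytokines, calcium and stress, and the class is also known to rise while tissue is dissociated and cells are sorted. METTL3 is the catalytic subunit of the enzyme that writes N6-methyladenosine (m6A) on mRNA, most often at GGACT-like sequences near stop codons, and m6A is known to shorten the life of many transcripts. No m6A measurement was used here.

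The deletion was visible in the transcript of the targeted gene. Mettl3 had 1303, 1258 and 1192 normalised counts in the WT samples in the order of their numbers, against 297, 299 and 405 in the cKO samples, an order kept below. From the steps in the deposited values, between 55965515 and 71464042 reads fell on the listed genes of each sample, and the lowest value of any early gene was 1016 normalised counts, of Ier3 in WT sample 1. NK-cell markers were abundant and somewhat lower in cKO, with 9 of 14 lower and 1 of 14 higher by the test below (18.8% and 17.8% of all genes) and a summed level of 942393 to 974605 normalised counts in WT and 849545 to 897436 in cKO. B-cell markers moved the other way, with 7 of 9 higher (17.8% of all genes), 0 lower, and a summed level of 1372 to 1399 in WT and 1875 to 1945 in cKO. Of 9 T-cell markers 1 was higher and 2 were lower, 33.3% called against 36.6% of all genes, and their sum was 9599 to 10278 in WT and 8639 to 9059 in cKO. The lower ones were Trbc2 (means of 4717 in WT and 3756 in cKO) and Cd3g (802 and 478). The higher one was Lef1 (2503 and 2751). Markers of mature NK cells, of which 3 of 10 were higher and 3 lower, summed to 183444 to 189357 in WT and 173573 to 180053 in cKO, and 4 plasma-cell markers, of which 0 were higher and 1 lower, to 8237 to 8571 and 7325 to 7967. The plasma-cell sum was almost all Xbp1, the gene called lower, with means of 8241 in WT and 7449 in cKO. Jchain (130 and 134), Sdc1 (20.4 and 31.0) and Mzb1 (31.4 and 39.2) were not called and had higher means in cKO. Of the defining markers Cd8b1 of T cells, S100a8, S100a9, Ly6g and Elane of myeloid cells, Flt3 and Siglech of dendritic cells and Pf4 and Ppbp of platelets were not among the listed genes. Other myeloid markers were present, with means of 2975 in WT and 3189 in cKO for Csf1r, 2924 and 2914 for C1qa, and 2186 and 1663 for Lyz2. Of 8 myeloid markers listed, 2 were called higher and 2 lower, with Lyz2 among the lower (50% called). Their sum was 14142 to 14707 in WT and 13797 to 14714 in cKO. Of 5 dendritic-cell markers listed, 2 were higher and 2 lower (80% called), the latter with Zbtb46, at 4284 in WT and 2701 in cKO. The ranges of the sums for NK cells, mature NK cells, B cells, T cells and plasma cells did not overlap between genotypes. Those of the other 5 marker lists (immature NK cells, ILC1, myeloid cells, dendritic cells, and erythroid cells with platelets) did. The part of any of these cell types in the results below was not tested. In bulk RNA, fewer cells of a type and less RNA per cell cannot be told apart.

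The count ratios and family shares given further below are not corrected for length and serve to compare genotypes. Levels were ranked between genes per kb of coding transcript. On this scale Nr4a1, an orphan nuclear receptor that acts without a known ligand, was by far the most abundant of the 10, with 200761 ± 4159 (SD, n = 3) normalised counts per kb in WT, position 11 among 11814 genes with a coding transcript. Ier2, a small nuclear protein, followed with 65829 ± 815 (SD, n = 3) per kb. Egr1, the best known of the EGR zinc-finger factors, and Cd69, a lectin-like membrane receptor used as a sign of recent activation, stood next with 40674 ± 870 and 40050 ± 1115 (SD, n = 3) per kb in WT. These neighbours overlapped in WT, where Cd69 reached 41019 per kb and Egr1 went down to 39762. All other neighbours in the WT order were separated. Ier5, a cofactor of heat-shock factor signalling, had 26037 ± 121 per kb, Nr4a2 13029 ± 66.2, Nr4a3 7554 ± 158, Egr2 1658 ± 93.1, Ier3 926 ± 23.9 and Egr3 363 ± 18.1 normalised counts per kb in WT (SD, n = 3). The 10 genes thus covered a wide range, from position 11 to position 6593 of 11814. The position of Cd69 depended on its length, since over all annotated exonic bases rather than the coding transcript it had 10380 normalised counts per kb in WT.

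**Figure D1:**
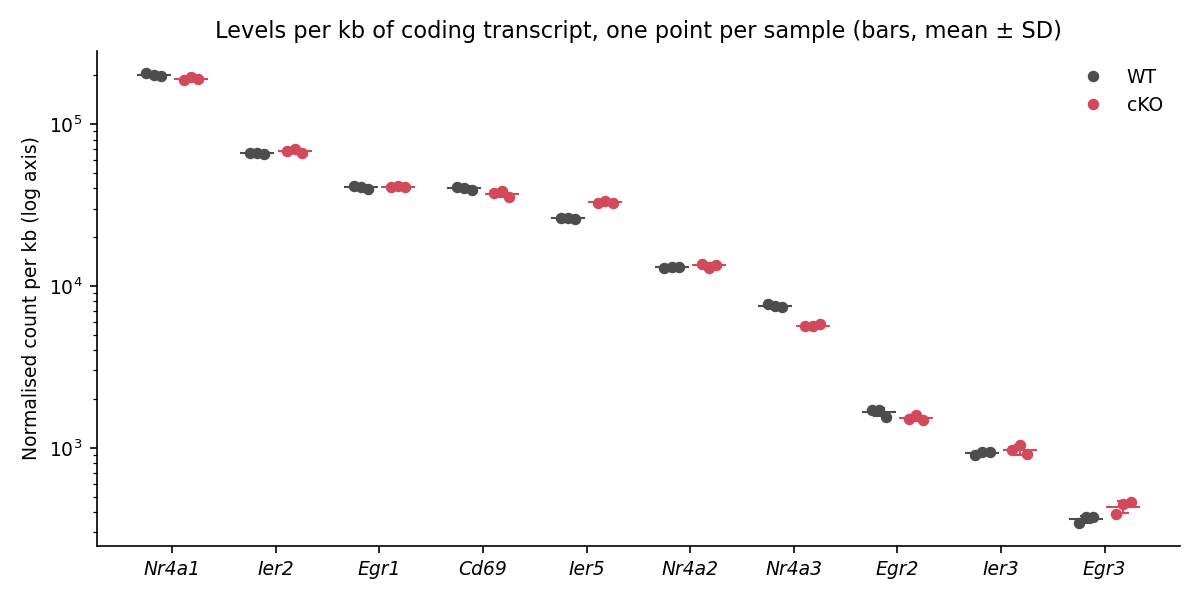
Normalised counts per kb of coding transcript (log axis) of the 10 early genes, ordered by their WT level, with one point per sample (grey, WT; red, cKO) and bars for mean ± SD. Nr4a1 lies near 200761 per kb in WT and Egr3 near 363, and the genotypes differ little beside the range between genes.

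The genotypes were compared on log2(normalised count + 1) with limma's trended, two-sided test and Benjamini-Hochberg (BH) adjustment across the 14490 genes, and a gene was called at an adjusted p under 0.05. Of the 10 early genes 6 were called, 4 lower in cKO (Nr4a1, Nr4a3, Egr2 and Cd69) and 2 higher (Egr3 and Ier5). Over all genes 36.6% were called, 18.8% lower and 17.8% higher, so that calls were common in this comparison. The shares over all genes given here and below include genes with few counts and were not matched for abundance. The samples of the genotypes did not overlap for 5 of the 10 genes, against 45.7% of all genes. By the limits used in the study, an unadjusted p under 0.05 with a log2 fold change beyond 1 in size, 0 of the 10 were called, against 1.75% of all genes. The differences were small, with a median absolute log2 fold change of 0.099 over the 10 genes, and the 95% interval of every one of the 10 lay within 0.5 of 0. The median over all genes was 0.17, but it includes genes with few counts and larger standard errors, and no median matched for abundance was taken. Together the 10 genes held 1.55% to 1.60% of all normalised counts in WT and 1.59% to 1.61% in cKO (exact permutation test, two-sided, p = 0.2).

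**Figure D2:**
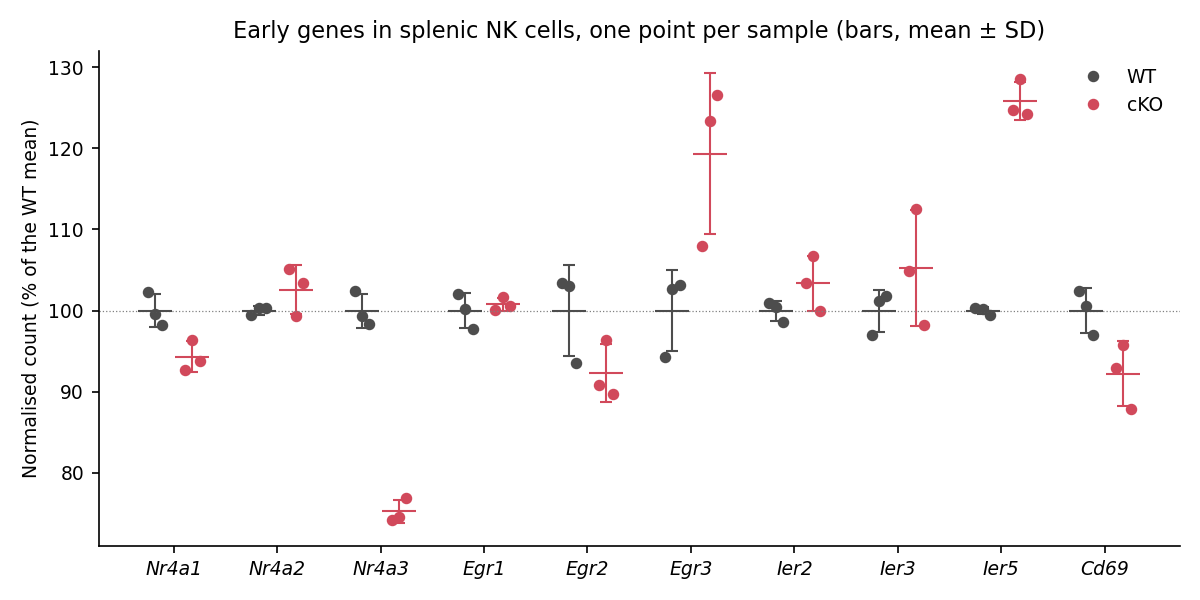
Normalised counts of each gene as a percentage of its WT mean, with one point per sample (grey, WT; red, cKO) and bars for mean ± SD (n = 3). Nr4a3 lies below and Ier5 and Egr3 lie above all WT samples, while Nr4a2, Egr1, Egr2, Ier2 and Ier3 overlap between genotypes.

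NR4A receptors bind DNA as constitutively active factors, and in T cells and NK cells they are known for restraining effector responses after strong or repeated stimulation. Their 3 genes diverged. Nr4a3 had 44228, 42905 and 42493 normalised counts in the WT samples and 32080, 32225 and 33225 in the cKO samples. Every cKO sample lay far below every WT sample. Nr4a3 fell from 43209 ± 907 to 32510 ± 623 (SD, n = 3), a log2 fold change of −0.41 (SE 0.030, limma BH-adjusted p = 2.28e-11), which is a change of −24.8%. This was the largest fall of the 10 genes.

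Nr4a1 had 524111, 510277 and 503239 normalised counts in the WT samples and 475021, 494257 and 480905 in the cKO samples. The genotypes did not overlap, but the gap between the lowest WT and the highest cKO sample was narrow. The mean went from 512542 ± 10619 to 483395 ± 9857 (SD, n = 3), a log2 fold change of −0.084 (SE 0.032, 95% interval −0.15 to −0.019, limma BH-adjusted p = 0.0388). The call was lost when the samples were scaled to equal totals (−0.035, limma BH-adjusted p = 0.320) and when genes under 1 CPM were left out (limma BH-adjusted p = 0.0690). It was also lost without WT sample 1 (limma BH-adjusted p = 0.144), WT sample 2 (0.0617), cKO sample 1 (0.214) or cKO sample 3 (0.0828).

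Nr4a2 had 46216, 46626 and 46622 normalised counts in the WT samples and 48863, 46173 and 48056 in the cKO samples. The cKO samples spread around the tightly grouped WT samples, with cKO sample 2 below all of them. Its log2 fold change was 0.037 (SE 0.030, 95% interval −0.024 to 0.098, limma BH-adjusted p = 0.363), and with equal totals it was called higher (0.086, limma BH-adjusted p = 0.0208).

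Ratios between genes of a family within one sample do not depend on how the samples are scaled. The log2 ratio of Nr4a1 to Nr4a3 counts was 3.57 in each of the 3 WT samples and 3.89, 3.94 and 3.86 in the cKO samples. The log2 ratio of Nr4a2 to Nr4a3 was 0.063, 0.12 and 0.13 in the WT samples and 0.61, 0.52 and 0.53 in the cKO samples, a difference of 0.45. The log2 ratio of Nr4a1 to Nr4a2 was lower by 0.12 in cKO, with a mean of 3.46 ± 0.037 in WT and 3.34 ± 0.071 in cKO (SD, n = 3). None of these ratios overlapped between genotypes, which also held for 61.8% of all pairs of listed genes with a mean at least that of Ier3. Nr4a3 supplied 7.17% ± 0.022 of the counts of the family in WT and 5.77% ± 0.14 in cKO (SD, n = 3), and the family's summed counts went from 602239 ± 11298 to 563602 ± 8435 (p = 0.1 in the two-sided exact permutation test, its lowest value here).

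The stop codon region of these transcripts is shown because METTL3 most often modifies such sequences. In the coding transcripts of Nr4a1 and Nr4a3 the GGACT nearest to the stop codon began 58 bases before it. The windows of 30 bases at that distance, from GENCODE M21 transcripts, are given 5′ to 3′ with the 5 aligned bases in capitals.
Nr4a1: gcctcaagttggaGGACTtggtaccccctc
Nr4a3: acctgaagctagaGGACTtggtacctccac
Nr4a2: acctgaaattggaAGACTtggtaccaccac
The Nr4a1 and Nr4a3 windows shared 24 of 30 bases, and the Nr4a2 window shared 24 with Nr4a1 and 25 with Nr4a3. Nr4a2 held AGACT at this place, a form that also belongs to the wider m6A consensus, and its only GGACT began 649 bases before the stop codon. GGACT occurred in all 10 transcripts and in 91.2% of the 11814 coding transcripts compared, and a match to these letters is a description, not a modified site.

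The promoters of the 3 NR4A genes were alike in another way. Each RefSeq window (GRCm38.p6, 250 bases before to 50 after the start of the gene) held 4 copies of TGACG on either strand, the core of the element bound by CREB, a factor activated by cyclic AMP and calcium. At least 1 copy stood in 31.0% of 12584 promoter windows of listed genes, and 3 or more in 2.27%. The full palindrome TGACGTCA, which contains TGACG, stood in 3.13% of windows and in none of these. One copy per gene is shown in capitals in the direction of the gene, so that CGTCA is TGACG on the opposite strand.
Nr4a1, chr15:101266793-101266822, plus strand: gcccctctccatgCGTCAcggagcgcttaa
Nr4a2, chr2:57124131-57124160, minus strand: cgccggctgcacgCGTCAcggagcccggcc
Nr4a3, chr4:48045145-48045174, plus strand: cctgtggcataaaTGACGtgccgagagagc
The copies begin 40, 144 and 147 bases before the RefSeq starts at 101266846 (Nr4a1), 57124003 (Nr4a2) and 48045305 (Nr4a3). The GENCODE spans given below have the same start for Nr4a2 and begin further upstream for Nr4a1 and Nr4a3, so that the copies shown for the latter genes lie inside the spans.

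EGR proteins are zinc-finger transcription factors, of which EGR1 is a general early-response factor and EGR2 and EGR3 are known in T cells for negative regulation and anergy. Egr1 had 186060, 182789 and 178294 normalised counts in the WT samples and 182590, 185327 and 183374 in the cKO samples. All cKO values lay inside the WT range. Its log2 fold change was 0.011 (SE 0.030, limma BH-adjusted p = 0.811), and the 95% interval of −0.050 to 0.072 leaves room for a small difference either way. The sign of this estimate turned when GC content and length were corrected for (−0.018).

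Egr3 had 1349, 1468 and 1476 normalised counts in the WT samples and 1545, 1765 and 1812 in the cKO samples. Every cKO sample was above every WT sample, although cKO sample 1 lay close to the WT range. Egr3 rose from 1431 ± 71.3 to 1707 ± 142 (SD, n = 3), a log2 fold change of 0.25 (SE 0.062, 95% interval 0.12 to 0.38, limma BH-adjusted p = 0.00204) or 19.1%. This call was kept under the 15 alternatives tried, which include other scalings and each sample left out. The gene was the least abundant of the 10 per kb, and its rise stood beside higher summed B-cell markers in cKO, whose part was not tested.

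Egr2 had 5083, 5067 and 4597 normalised counts in the WT samples and 4468, 4739 and 4411 in the cKO samples. The genotypes overlapped, because WT sample 3 was below cKO sample 2. The mean went from 4916 ± 276 to 4539 ± 175 (SD, n = 3), with a log2 fold change of −0.11 (SE 0.043, limma BH-adjusted p = 0.0406; exact permutation test, two-sided, p = 0.2). The call was lost with equal totals (limma BH-adjusted p = 0.237) and without WT sample 1 (0.167), WT sample 2 (0.147), cKO sample 1 (0.136) or cKO sample 3 (0.146).

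Within samples the EGR genes also moved apart. The log2 ratio of Egr2 to Egr3 was 1.91, 1.79 and 1.64 in the WT samples and 1.53, 1.42 and 1.28 in the cKO samples, a difference of −0.37 without overlap. Egr3 rose against Egr1 as well, with a mean log2 ratio of Egr1 to Egr3 of 6.99 ± 0.10 in WT and 6.75 ± 0.12 in cKO (SD, n = 3). As shares of the counts of the family, Egr2 made up 2.60% ± 0.097 in WT and 2.39% ± 0.074 in cKO, and Egr3 0.759% ± 0.052 and 0.898% ± 0.071 (SD, n = 3).

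Egr2 was the only EGR gene with promoter windows in the table used, 5 in all for its different starts. A CArG box, the element bound by serum response factor, stood in 4 of these windows and in 1.23% of all windows. Counted by gene, 1.48% of 9908 genes had a box in at least 1 window. The box shared by 3 overlapping Egr2 windows is shown in capitals, because serum response factor is the classical activator of this gene family.
Egr2, chr10:67537787-67537816, plus strand: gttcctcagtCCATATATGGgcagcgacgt
The same 3 windows held 2 copies of TGACG each. The EGR site GCGTGGGCG, present in 1.22% of windows, and the NR4A monomer site AAAGGTCA, present in 1.08%, were in none of the windows of the early genes that were searched (Nr4a1, Nr4a2, Nr4a3, Egr2, Ier3 and Ier5).

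The IER genes are named for their rapid induction. IER2 and IER5 belong to one protein family, to which IER3 is unrelated. Ier5 had 85588, 85456 and 84845 normalised counts in the WT samples and 106343, 109630 and 106020 in the cKO samples. The WT samples were nearly equal and all cKO samples were well above them. Ier5 rose from 85296 ± 396 to 107331 ± 1998 (SD, n = 3), a log2 fold change of 0.33 (SE 0.029, 95% interval 0.27 to 0.39, limma BH-adjusted p = 6.96e-10) or 25.8%. This was the largest rise of the 10 genes, and it was kept under the same 15 alternatives. Its transcript is a single exon with 5 copies of GGACT, as is that of Ier2, which was not called. In Ier5 the copy nearest to the stop codon began 147 bases before it, against 52 in Ier3, also not called, and 46 in Cd69.
Ier5: gtctagcttctcgGGACTcctacggaaaag

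Ier2 had 101136, 100651 and 98788 normalised counts in the WT samples and 103648, 106949 and 100120 in the cKO samples. The genotypes overlapped through cKO sample 3. Its log2 fold change was 0.047 (SE 0.030, 95% interval −0.015 to 0.11, limma BH-adjusted p = 0.239), and it was called higher with equal totals (0.097, limma BH-adjusted p = 0.00486). Ier3, known as a regulator of cell survival, had 1016, 1059 and 1066 normalised counts in the WT samples and 1098, 1178 and 1029 in the cKO samples. These also overlapped, and its log2 fold change was 0.072 (SE 0.066, limma BH-adjusted p = 0.436).

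The rise of Ier5 changed its balance with Ier2. The log2 ratio of Ier2 to Ier5 counts was 0.24, 0.24 and 0.22 in the WT samples and −0.037, −0.036 and −0.083 in the cKO samples, a difference of −0.28 without overlap. The summed counts of the 3 IER genes went from 186535 ± 1616 to 212005 ± 5354, of which Ier5 made up 45.7% ± 0.18 and 50.6% ± 0.47 (SD, n = 3). Per kb of transcript Ier2 remained above Ier5 in both genotypes, with 68050 ± 2244 against 32763 ± 610 normalised counts per kb in cKO (SD, n = 3). The ratio of Ier2 to Ier3 overlapped between genotypes and differed by −0.024 on the log2 scale (exact permutation test, two-sided, p = 0.6).

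**Figure D3:**
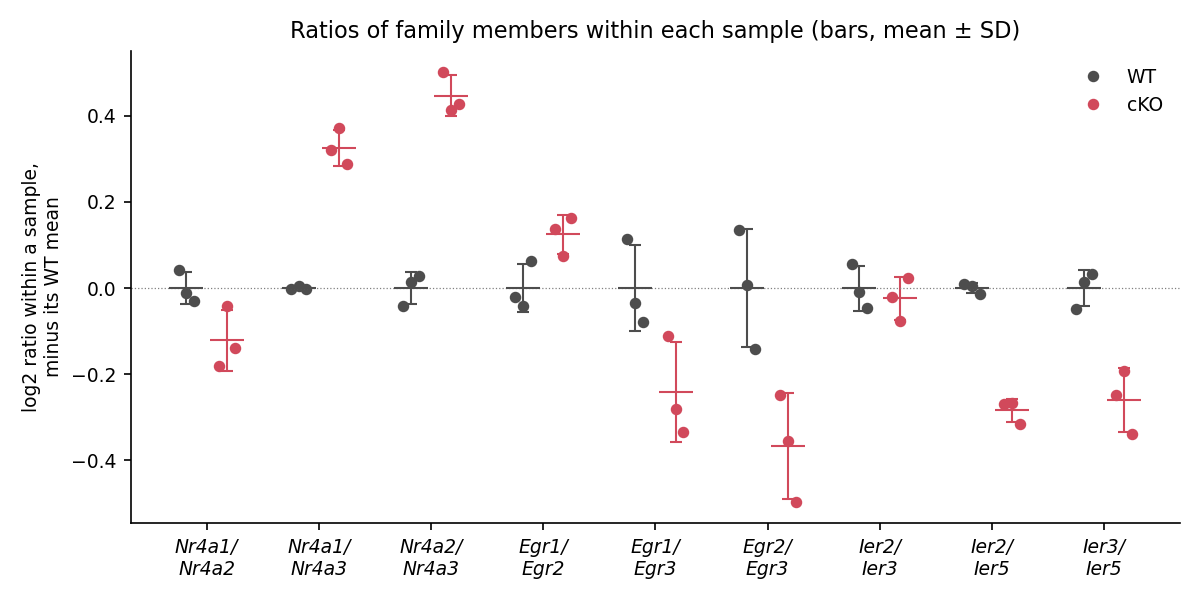
The log2 ratio of each pair of genes of one family within each sample, minus its WT mean, with one point per sample (grey, WT; red, cKO) and bars for mean ± SD (n = 3). The ratios with Nr4a3 are higher in cKO by 0.33 and 0.45, those with Ier5 lower by 0.28 and 0.26, and the ratio of Ier2 to Ier3 overlaps.

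Over the 9 pairs within families, 8 did not overlap between genotypes, each with p = 0.1 in the two-sided exact permutation test, the smallest that 20 assignments allow, and a BH-adjusted p of 0.113 over the pairs. Among all pairs of listed genes with a mean at least that of Ier3, 61.8% did not overlap.

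Cd69 encodes the receptor that holds activated lymphocytes in tissues by lowering S1PR1 at the surface. It had 69200, 67984 and 65508 normalised counts in the WT samples and 62824, 64704 and 59406 in the cKO samples. The genotypes did not overlap, with WT sample 3 and cKO sample 2 close together. Cd69 went from 67564 ± 1881 to 62311 ± 2686 (SD, n = 3), a log2 fold change of −0.12 (SE 0.033, 95% interval −0.18 to −0.050, limma BH-adjusted p = 0.00562) or −7.81%. The call was lost with equal totals (−0.068, limma BH-adjusted p = 0.0690) and without cKO sample 3 (−0.083, limma BH-adjusted p = 0.0597). The summed NK-cell markers were also lower in cKO, but the single markers did not all move alike. While 9 of 14 were called lower, among them Ncr1, whose locus carries Cre in cKO, Tbx21 was higher (log2 fold change 0.23). Eomes (−0.010) and Klrd1 (−0.025) were not called. The part of NK-cell markers in the difference of Cd69 was not tested.

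**Figure D4:**
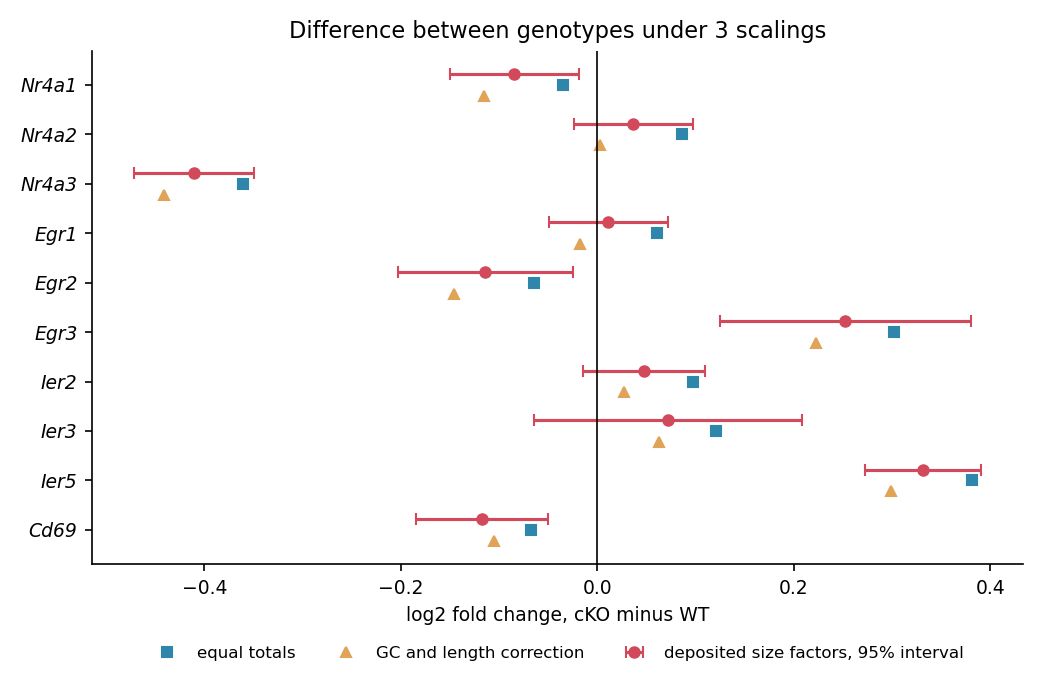
The log2 fold change of each gene, cKO minus WT, with the deposited size factors (red circles with 95% intervals), with equal totals (blue squares) and with a correction for GC content and length (yellow triangles). Nr4a3, Egr3 and Ier5 stay on their side of 0 at all points, and Egr1 lies on both sides.

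Gene structure, which the choice by symbol did not use, differed between the families. The EGR, IER and Cd69 genes were compact, from 1240 to 8112 bases long with 1 to 5 exon blocks, against medians of 23330 bases and 10 exon blocks over the coding genes listed. The NR4A genes were not, with 9 to 10 exon blocks and lengths of 20527 (Nr4a1), 17174 (Nr4a2) and 41295 bases (Nr4a3). In the 3′ UTR, ATTTA, the core of AU-rich elements, occurred at least 2 times in 9 of 10 transcripts against 45.0% of coding transcripts, and Ier2 had none. Egr3 had the most copies, 7, and Nr4a3 and Ier3 had 5 each. Per kb of 3′ UTR the order differed, with 8.16 copies in Ier3, 5.52 in Nr4a1, 2.65 in Egr3 and 1.62 in Nr4a3. Copies of GGACT per kb had a median of 0.895 over the 10 transcripts and 1.05 over all. In the GENCODE annotation 0 of the 10 genes overlapped another gene. Nr4a1 lies on chromosome 15 from 101254269 to 101274795, Nr4a2 on chromosome 2 from 57106830 to 57124003 and Nr4a3 on chromosome 4 from 48045153 to 48086447 (GRCm38). Egr2 lies on chromosome 10 from 67535475 to 67542188, Egr3 on chromosome 14 from 70077203 to 70082614, Ier5 on chromosome 1 from 155096361 to 155099636 and Cd69 on chromosome 6 from 129267325 to 129275436.

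Other immediate-early genes moved in both directions, like the 10 described. All 42 genes of this list were in the table, and 16 were called higher and 15 lower, which is 73.8% called against 36.6% of all genes. These shares were not matched for abundance. When genes under 1 CPM were left out, 31 genes of the list and 5302 of all 11817 genes kept were called. The median log2 fold change of the list was 0.036 against 0.0014 over all genes, and the median absolute log2 fold change 0.20 against 0.17. Fos, a subunit of the AP-1 factor, rose from 95998 ± 3058 to 169891 ± 4713 normalised counts (SD, n = 3), a log2 fold change of 0.82 (SE 0.031, limma BH-adjusted p = 8.01e-17). Dusp1, a phosphatase that ends MAP kinase signalling, rose by a log2 fold change of 0.53 (SE 0.031, limma BH-adjusted p = 3.06e-13), and Trib1, a pseudokinase adaptor, by 0.66 (SE 0.11, limma BH-adjusted p = 3.53e-05).

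On the other side, Egr4, the fourth EGR factor, fell from 707 ± 59.8 to 445 ± 30.1 normalised counts (SD, n = 3), a log2 fold change of −0.67 (SE 0.091, limma BH-adjusted p = 1.68e-06). Fosl1, another AP-1 subunit, fell by a log2 fold change of −0.53 (SE 0.059, limma BH-adjusted p = 7.93e-08), and Sik1, a kinase that holds back CREB coactivators, by −0.34 (SE 0.028, limma BH-adjusted p = 2.32e-10). Genes of the same family thus lay on opposite sides, Fos against Fosl1 and Egr3 against Egr4.

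**Figure D5:**
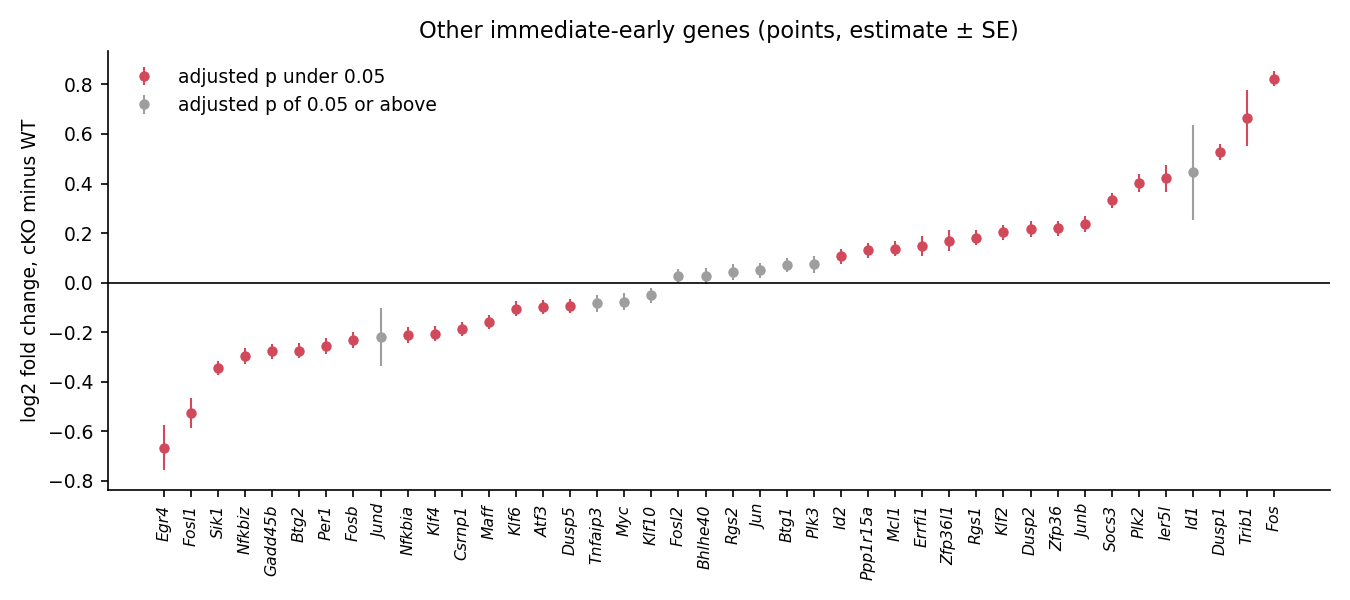
The log2 fold change, cKO minus WT, of the 42 other immediate-early genes in order of size, with bars for the standard error (red, adjusted p under 0.05; grey, not). The points run from −0.67 for Egr4 to 0.82 for Fos, with 16 called above 0 and 15 below.

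Factors and co-activators upstream of early genes, not all of them activating, were all in the table, 32 genes. Of these 5 were called higher and 9 lower, 43.8% in all against 36.6% of all genes, with a median log2 fold change of −0.021. Nfatc2, a calcium-activated factor, rose by 0.33 (SE 0.040, limma BH-adjusted p = 2.47e-07), Mkl1, a coactivator of serum response factor, by 0.31 (SE 0.036, limma BH-adjusted p = 1.28e-07) and Creb1 by 0.21 (SE 0.035, limma BH-adjusted p = 2.35e-05) on the log2 scale. Crem, whose gene makes activating and repressing relatives of CREB, fell from 6835 ± 294 to 4770 ± 42.5 normalised counts (SD, n = 3), a log2 fold change of −0.52 (SE 0.038, limma BH-adjusted p = 3.36e-11). Elk4, a partner of serum response factor, fell by a log2 fold change of −0.30 (SE 0.034, limma BH-adjusted p = 9.15e-08) and Mef2c by −0.22 (SE 0.049, limma BH-adjusted p = 0.000937).

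Of the partners of EGR and NR4A proteins, 8 of 9 were listed, 2 were called higher and 3 lower, 62.5% of those listed against 36.6% of all genes, with a median log2 fold change of −0.058. Nab2, an EGR-induced corepressor that binds EGR1 and EGR2, fell from 3944 ± 217 to 2964 ± 212 normalised counts (SD, n = 3), a log2 fold change of −0.41 (SE 0.050, limma BH-adjusted p = 2.79e-07). Its relative Nab1 fell by −0.12 (SE 0.035, limma BH-adjusted p = 0.00771) and Ddx3x, an RNA helicase, by −0.16 (SE 0.032, limma BH-adjusted p = 0.000264). Rxra, the dimer partner of NR4A1 and NR4A2, rose by 0.28 (SE 0.042, limma BH-adjusted p = 6.73e-06), and Hcfc1, a chromatin cofactor, by 0.17 (SE 0.034, limma BH-adjusted p = 0.000288).

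Among genes linked to EGR2, EGR3 or NR4A proteins in lymphocytes, 24 of 26 were listed, 3 were called higher and 9 lower, 12 of those 24 against 36.6% of all genes, with a median log2 fold change of −0.049. Il2ra, the alpha chain of the IL-2 receptor, fell from 375 ± 76.6 to 223 ± 17.9 normalised counts (SD, n = 3), a log2 fold change of −0.73 (SE 0.14, limma BH-adjusted p = 0.000151). Crtam, an adhesion receptor, fell by −0.66 (SE 0.054, limma BH-adjusted p = 2.74e-10) and Tnfrsf9, the costimulatory receptor 4-1BB, by −0.58 (SE 0.042, limma BH-adjusted p = 2.57e-11). The inhibitory receptor Ctla4 rose at a low level, from 66.1 ± 17.1 to 139 ± 10.3 normalised counts (SD, n = 3), a log2 fold change of 1.09 (SE 0.22, limma BH-adjusted p = 0.000292). Tigit, another inhibitory receptor, rose by 0.23 (SE 0.039, limma BH-adjusted p = 4.20e-05) and Dgkz, a kinase that removes diacylglycerol, by 0.13 (SE 0.030, limma BH-adjusted p = 0.000774).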

How the data were processed

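The sample labels gave genotypes and replicate numbers. Following the study's methods, reads were mapped to GRCm38 by Hisat2 and summed per gene by featureCounts. Each sample column that the authors deposited is a signal, namely gene counts over the size factor that DESeq2 gave the sample. The strand setting was not given in the sources used here. Other deposited columns hold the authors' mean, log2 fold change with standard error, Wald score, p-value and adjusted p-value, and none of these were used. In each sample 100% of the values lay within 0.1 read of a whole multiple of one step, from which the reads on listed genes follow.

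The genotypes were compared with limma 3.58.1 (R 4.3.3) on log2(value + 1). A filter of 1 normalised count in 3 samples removed none of the 14490 genes. The added 1 slightly shrinks the fold changes of low genes. The 95% intervals rest on limma's moderated standard errors, and the exact permutation test used the 20 assignments of samples. Replicates differed beyond counting error, with a chi-square per degree of freedom of 5.50 to 8.01, and none were merged. The steps were tested on simulated data. The early genes, lists and tests were chosen with earlier results of these data known. From each list of related genes, the 3 called genes with the highest and the 3 with the lowest log2 fold change and a mean of at least 1 CPM are named. Mkl1 and Mkl2 are older names of Mrtfa and Mrtfb, and were counted once each. GENCODE M21 matched 97.3% of the gene names, and 19 names were spreadsheet dates. RefSeq promoter windows were matched for Nr4a1, Nr4a2, Nr4a3, Egr2, Ier3 and Ier5, and not for Egr1, Egr3, Ier2 and Cd69.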

Additional observations from a re-analysis of the deposited data

How the results depend on the processing

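With equal totals in place of the deposited size factors, 4 of the early genes were called higher and 1 lower in cKO (Nr4a3), and the overall median log2 fold change moved from 0.0014 to 0.051. The share of calls that were higher was then 63.4% instead of 48.5%, with 3487 genes higher and 2016 lower. With TMM scaling 2663 were higher and 2658 lower. Correcting for GC content and length, 2308 were higher and 2972 lower, and Egr1, which was not called, turned to a log2 fold change of −0.018 with and without the replicate block. Leaving out each sample in turn, its log2 fold change ran from −0.0051, without WT replicate 3, to 0.026. In the same fits between 3 and 6 early genes were called, 1 to 4 of them lower, and 4417 to 4922 of all genes were called. The lowest count, 3, was without cKO replicate 3, where 1 gene was called lower. Without WT replicate 1, WT replicate 2 or cKO replicate 1, 2 were called lower. The causes were not tested, beyond the smaller number of samples.

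Nr4a3 (log2 fold change −0.44 to −0.36), Ier5 (0.30 to 0.38) and Egr3 (0.21 to 0.32) kept their call under the 15 alternatives, which also held voom weights (5246 genes called), a pseudocount of 0.1, no filter and a filter of 1 CPM in 3 samples. Counts for the lists of related genes stayed within 1.5 times under the same settings. Count models (edgeR and DESeq2) were planned and not run. Same-numbered samples correlated at −0.024, 0.12 and 0.065 in their deviations from the group means over 11055 genes, so the numbers were not taken as pairs. The replicate block gave 5543 called genes in place of 5307, and WT sample 1 correlated better with cKO sample 3 than with its own number. The block changed no call of the 10 genes. Depth was ample for all 10, and the 3 samples per genotype limit the precision.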
